A study of Mus musculus with 5 samples.

Results

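Autonomic receptors and adenylyl cyclases of bulk atrial tissue were described here through 9 genes. They were listed by symbol, with earlier results of these data known when the list was drawn up. The receptor genes were the adrenergic Adrb1, Adra1a and Adra1b and the muscarinic Chrm2. The others were the G protein alpha subunit genes Gnai2, Gnao1 and Gnas, and the cyclase genes Adcy5 and Adcy6. The listed genes are 9 of 57186 genes in the gene tables, and 9 of the 16412 that passed the expression filter. The tissue was snap-frozen mouse cardiac atria of 2 groups, namely animals with 1 E990G allele of MRC2 (het, heterozygous) and wild-type animals (WT), with no treatment named in the labels. The 3 het libraries (het 5, het 6 and het 7) and 2 WT libraries (WT 7 and WT 8) analysed were all of batch 2, from a series of 7 het and 8 WT animals that were 4 to 10 months old. The age of each animal, its sex, the strain and the way the allele was made are not in the labels used here. MRC2 takes up collagen into fibroblasts and other mesenchymal cells, and the series concerns atrial fibrillation.

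Sympathetic nerves release noradrenaline, which acts on the beta-1 receptor of cardiac myocytes. Through the stimulatory G protein this receptor raises adenylyl cyclase activity, cyclic AMP and protein kinase A activity, and with them rate and force. Vagal nerves release acetylcholine, which acts on the M2 receptor. Through inhibitory G proteins that receptor lowers cyclase activity and opens the acetylcholine-activated potassium channel, which slows the sinus node and shortens the atrial action potential. Alpha-1 receptors couple to phospholipase C instead.

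The libraries held between 17784601 (WT 8) and 28353091 (het 7) expected counts, and those of the 9 genes ran from 22 (Adra1a in het 6) to 26193 (Gnas in WT 7). Of the tissue's defining markers, Nppa, the atrial natriuretic peptide gene, stood at 38975 to 45538 TPM (a level per transcript length, scaled to the library) in het and 49415 to 62536 TPM in WT libraries. The summed level of 8 atrial myocyte markers was 84220 to 97257 TPM in het and 110714 to 117572 TPM in WT, without overlap, with 1 marker called higher and 2 lower. Myl2, the ventricular light chain gene, varied between 4.0 TPM (het 7) and 319 TPM (het 6) within the het group and was 92.1 and 119 TPM in WT. Markers of 3 other cell types were also apart without overlap, with higher sums in het. By counts scaled to library size, 42.3% of all single tested genes showed no overlap either. The share over such sums was not computed. The summed level of 6 fibroblast markers was 1023 to 1087 TPM in het and 588 to 901 TPM in WT, with 1 called higher. For 7 macrophage markers it was 207 to 268 TPM in het and 182 to 183 TPM in WT, with 1 called higher, and for 6 Schwann cell markers 20.1 to 23.3 TPM in het and 13.6 to 17.7 TPM in WT, with 0 called in edgeR. Within the fibroblast list the log2 fold changes of Pdgfra (0.67), Dcn (0.39), Lum (0.50) and Dpt (0.27) were positive. Those of Tcf21 (-0.05) and Col1a1 (-0.24) were negative. Most of the macrophage sum came from C1qa and C1qb, with log2 fold changes of 0.095 and 0.063. None of the markers in 10 lists was at 0 in all libraries. In bulk tissue, fewer cells of a type and less RNA per cell cannot be told apart, and the part of these shifts in the results below was not tested. The Y-chromosome gene Ddx3y was counted 938 times in WT 7 and at most 3 times elsewhere. Xist, the X-inactivation RNA gene, was counted 13247 to 15280 times in het, 6117 times in WT 8 and 21.5 times in WT 7. By these genes WT 7 came from a male and the other libraries from females. Sex is thus partly confounded with genotype in each fold, and its part in the folds was not tested. Chrm2 is therefore also given without WT 7.

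The 9 genes spanned a wide range of levels, with the G proteins at the top and the alpha-1A receptor at the bottom. Averaged over the 5 libraries, Gnas stood at 759 TPM, above 99.2% of the tested genes, and Gnai2 at 142 TPM. Adcy6 (103 TPM), Gnao1 (68.4 TPM) and Chrm2 (60.0 TPM) followed. Adcy5 had 21.7 TPM, Adra1b 17.9 TPM and Adrb1 8.50 TPM. Adra1a, at 0.338 TPM, stood above only 7.74% of the tested genes. Some neighbours in this order had ranges over the libraries that overlapped. The ranges of Gnao1 (52.3 to 77.6 TPM) and Chrm2 (39.1 to 75.8 TPM) did, and in het 6 Chrm2 (75.4 TPM) was above Gnao1 (70.2 TPM). Those of Adcy5 (16.8 to 27.7 TPM) and Adra1b (16.01 to 19.2 TPM) overlapped as well, but within each library Adcy5 was the higher. By the total of the gene, Adcy6 (87.1 to 128 TPM) stayed below Gnai2 (132 to 155 TPM) and above Gnao1 in each library. That total includes a retained-intron entry, described below. The protein-coding transcripts of Adcy6 alone summed to 46.6, 47.5 and 57.1 TPM in het and 33.7 and 22.3 TPM in WT. Those of Gnao1 summed to more in each library, at 60.4, 59.0 and 63.9 TPM in het and 60.6 and 44.7 TPM in WT. Thus the M2 receptor transcript was the most abundant of the 4 receptors, and its level was above that of the beta-1 receptor transcript in each of the 5 libraries.

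**Figure D1:**
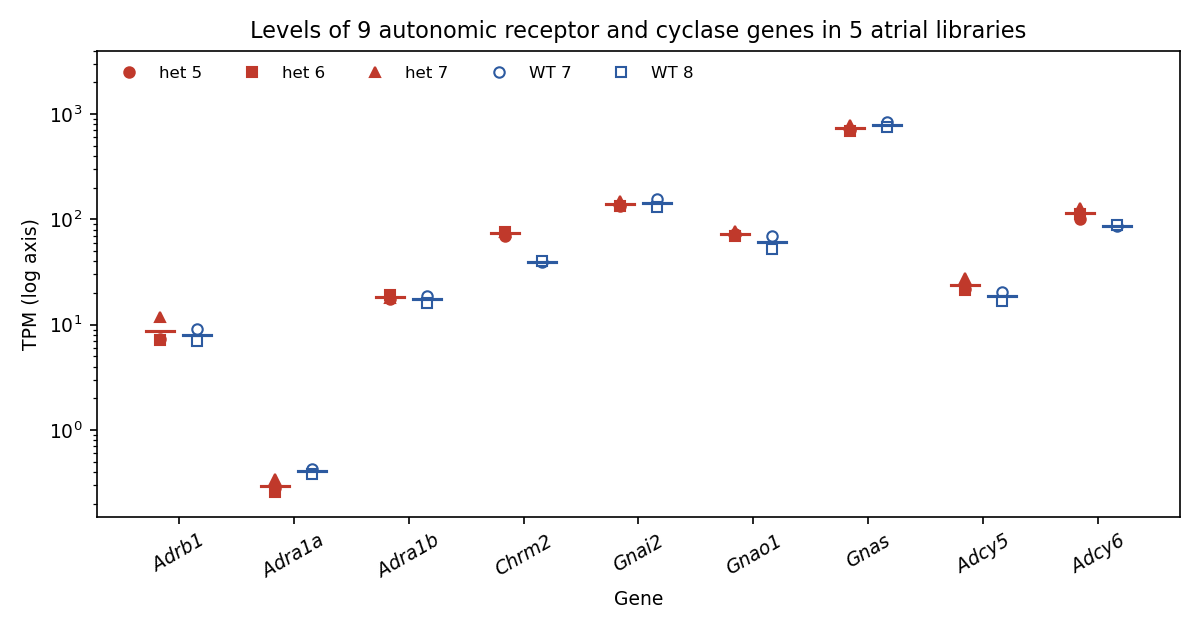
Level of each gene in TPM (log axis) in each library; filled red symbols are the 3 het libraries, open blue symbols the 2 WT libraries, and bars the group means. Chrm2 is the gene whose groups lie farthest apart relative to their spread, with 69.6 to 75.8 TPM in het and 39.1 to 40.3 TPM in WT.

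The comparison of het with WT asked whether the variant goes with other levels of these genes. Chrm2 was higher in the het libraries, 1.67-fold, and the other 8 genes did not pass the test. Of the 9 genes 1 was thus called higher and 0 lower (edgeR quasi-likelihood test, Benjamini-Hochberg adjusted p under 0.05 over all tested genes). The call of Chrm2 was lost without any 1 het library, and with trends in transcript length and GC content removed, as given below. Chrm2 was also the only 1 of the 9 with an unadjusted edgeR p under 0.05, where 24.7% of all tested genes had one. Across all tested genes 2.99% were called higher, 2.66% lower and 5.64% in either direction. In CPM (counts scaled to library size) the 2 groups did not overlap for 7 of the 9 genes, all but Adrb1 and Gnao1, where 42.3% of all tested genes showed no overlap. The median log2 fold change of the 9 genes was -0.013, against -0.0014 over all tested genes.

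Chrm2 encodes the M2 muscarinic receptor, through which the vagus acts on the atrium. It had 395, 407 and 382 CPM in het 5, 6 and 7, against 219 and 253 CPM in WT 7 and 8. Per length, its level was 69.6, 75.4 and 75.8 TPM in the het libraries (mean 73.6 ± 3.5, SD, n = 3), against 39.1 and 40.3 TPM in the WT libraries (mean 39.7 ± 0.83, SD, n = 2). Each het library lay above both WT libraries on either scale, and the gap between groups was wider than the range within them. The log2 fold change was 0.74 (SE 0.14, edgeR adjusted p = 0.0229). Without WT 7 it was 0.64 (adjusted p = 0.048), in an edgeR fit that left 1 WT library, assumed to vary like the het libraries. Without het 5, het 6 or het 7 the fold stayed at 0.74, 0.72 and 0.76 while the edgeR adjusted p went to 0.056, 0.087 and 0.061, so that the call was lost.

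Fold changes in these libraries followed transcript length, and Chrm2 is a long transcript. Its effective length of 5284 bases put it in the longest decile of tested genes, where the median log2 fold change was 0.33 and 15.9% of genes were called higher. In that decile 5.36% of genes had a fold at or above that of Chrm2. Once trends with length and GC content were fitted in each library and removed, the log2 fold change of Chrm2 was 0.44 (SE 0.12, edgeR adjusted p = 0.124) and the call was lost. Under the same correction 0 of the 9 genes were called, against 0.149% of 16061 genes (0.0996% higher and 0.0498% lower). The fold of Chrm2 kept its sign in each of the 15 alternatives tried, from 0.44 to 0.89.

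**Figure D2:**
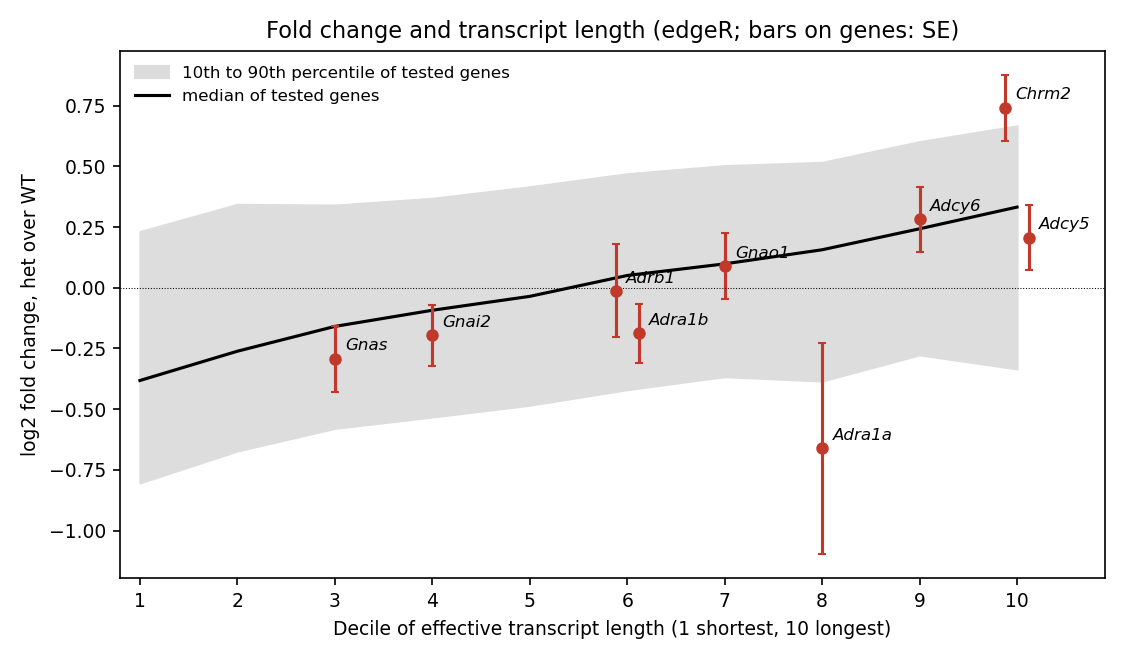
The log2 fold change of het over WT (edgeR) against the decile of effective transcript length; the line is the median of all tested genes in the decile, the grey band their 10th to 90th percentile, and red points the 9 genes with SE bars. Chrm2 lies above the band of the longest decile, Adcy5 and Adcy6 lie near the median of theirs, and Adra1a lies below the band.

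The stretch before the RefSeq start of Chrm2, on chromosome 6 (GRCm38.p6, chr6:36387834-36388083, plus strand), is shown because Chrm2 is the 1 member that was called. Capitals mark the single match to CCAAT, which lies on the opposite strand.
Chrm2 promoter: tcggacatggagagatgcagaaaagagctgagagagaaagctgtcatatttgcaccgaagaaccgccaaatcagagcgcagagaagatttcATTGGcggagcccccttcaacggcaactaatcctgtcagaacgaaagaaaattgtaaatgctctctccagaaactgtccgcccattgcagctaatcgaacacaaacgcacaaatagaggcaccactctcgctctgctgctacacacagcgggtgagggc
The 5 letter strings were searched on both strands of promoter windows cut to the first 250 bases. Of these strings, CCAAT is held by 33.8% of 32851 RefSeq promoters. The Chrm2 window held no match to TGACG (17.8% of promoters), to the full cyclic AMP element TGACGTCA, which contains TGACG (1.55%), to AGATAA (9.99%) or to CACGTG (6.02%). Its GC content was 50%, above that of 41.1% of promoters. The windows of Adrb1 (74%), Gnao1 (76.4%), Adcy5 (78%) and Gnas (61.6% to 80%) were richer in GC. Of the 2 windows of Adra1b 1 was richer (72.8%) and 1 poorer (41.6%). Matches to TGACG were held by the windows of Gnas (3) and Adrb1 (1), and not by those of Adra1b, Gnao1 and Adcy5. The sequence table held 6 of the 9 genes, and Adra1a, Gnai2 and Adcy6 were not among them.

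Adrb1 encodes the beta-1 receptor, the main target of noradrenaline in the heart. It had 20.1, 18.7 and 29.0 CPM in het 5, 6 and 7, against 24.5 and 21.1 CPM in WT 7 and 8. The groups overlapped, and het 7 was the highest library. The log2 fold change was -0.01 (SE 0.19, edgeR adjusted p = 0.975), and its sign turned to 0.13 with length and GC trends removed. Per length, het 7 (11.9 TPM) and WT 7 (9.16 TPM) stood above het 5 (7.29 TPM), het 6 (7.20 TPM) and WT 8 (6.96 TPM). The summed level of 6 sinus node markers, among them the pacemaker channel gene Hcn4, was also highest in these 2 libraries, at 24.0 TPM in het 7 and 24.9 TPM in WT 7. In the others it was 14.2 TPM in het 5, 13.5 TPM in het 6 and 10.3 TPM in WT 8. Adipocyte markers summed to 258 TPM in het 7 and 195 TPM in WT 8, the library lowest in Adrb1 TPM. They summed to 52.2 TPM in WT 7, 27.3 TPM in het 6 and 10.5 TPM in het 5. The part of either cell type in the Adrb1 level was not tested.

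The alpha-1 receptors bind noradrenaline and couple to phospholipase C. Adra1b had 43.7, 40.3 and 41.1 CPM in the het libraries, against 48.4 and 46.5 CPM in the WT libraries. These groups did not overlap, but the difference did not pass the test (log2 fold change -0.19, SE 0.12, edgeR adjusted p = 0.373). On the TPM scale the groups overlapped, at 18.2 ± 0.84 TPM in het (SD, n = 3) and 17.4 ± 2.0 TPM in WT (SD, n = 2), and the sign turned. Adra1a rests on few reads, with 24, 22 and 30 expected counts in het 5, 6 and 7 and 41 and 28 in WT 7 and 8. It had 1.13, 0.985 and 1.03 CPM in het, against 1.68 and 1.64 CPM in WT. Its fold was the largest of the 9 after that of Chrm2 and the least precise (log2 fold change -0.66, SE 0.43, edgeR adjusted p = 0.378).

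Gnas encodes the stimulatory alpha subunit that carries the beta-1 signal to the cyclases. It had 852, 799 and 886 CPM in het 5, 6 and 7, against 1074 and 997 CPM in WT 7 and 8. All 3 het libraries lay below both WT libraries, yet the gene did not pass the test (log2 fold change -0.29, SE 0.14, edgeR adjusted p = 0.207). Gnas is in the third length decile, where the median fold of tested genes was -0.16, and with length and GC trends removed its fold was 0.00033. Gnai2, an inhibitory alpha subunit, had 241, 226 and 241 CPM in het and 275 and 265 CPM in WT. Its log2 fold change was -0.20 (SE 0.13, edgeR adjusted p = 0.367), and it was -0.0060 with both trends removed. Gnao1 encodes the alpha subunit of Go, which is abundant in neurons and present in the atrium. It had 200, 183 and 192 CPM in het, against 197 and 163 CPM in WT, with overlap between groups. Its log2 fold change was 0.09 (SE 0.13, edgeR adjusted p = 0.731), and it turned to -0.024 without WT 8.

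The 3 subunits differ in the carboxyl-terminal tail with which an alpha subunit contacts its receptor. The last 36 coding bases before the stop codon are shown in lower case, with capitals where a base differs from Gnai2 at the same distance from the stop codon. They were read from GENCODE M21 transcripts on GRCm38, chromosomes 9 (Gnai2), 8 (Gnao1) and 2 (Gnas). Gnao1-201 and Gnao1-203 share 1 tail and Gnao1-207 has another.
Gnai2-201: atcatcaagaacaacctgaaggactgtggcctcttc
Gnao1-201: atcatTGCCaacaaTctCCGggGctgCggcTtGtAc
Gnao1-207: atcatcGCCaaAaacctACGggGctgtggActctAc
Gnas-208: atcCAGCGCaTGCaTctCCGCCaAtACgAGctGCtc
Of these 36 bases 13 differed from Gnai2 in Gnao1-201, 10 in Gnao1-207 and 22 in Gnas-208. Transcripts with the tail of Gnao1-201 made up 78.3% ± 1.3 of Gnao1 in het (SD, n = 3) and 81.8% ± 0.035 in WT (SD, n = 2). Gnao1-207 made up 4.95% ± 0.45 in het and 4.73% ± 1.6 in WT, a difference smaller than the spread between WT libraries.

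Adcy5 and Adcy6 encode the calcium-inhibited cyclases that dominate in cardiac myocytes. Adcy6 was the more abundant of the pair in each library. It had 451, 478 and 505 CPM in het 5, 6 and 7, against 377 and 409 CPM in WT 7 and 8. The groups did not overlap, and the difference did not pass the test (log2 fold change 0.28, SE 0.13, edgeR adjusted p = 0.215). Adcy5 had 156, 146 and 175 CPM in het, against 143 and 132 CPM in WT. It showed no overlap either (log2 fold change 0.21, SE 0.13, edgeR adjusted p = 0.372). Both are long transcripts, in length deciles 10 (Adcy5) and 9 (Adcy6), with decile medians of 0.33 and 0.24. The fold of Adcy6 was 0.24 and that of Adcy5 0.21 with length and GC trends removed, but that of Adcy5 was -0.0067 with the length trend alone removed.

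Ratios of TPM within a library compare pairs of genes and do not depend on library scaling, but they do move with the length and GC trends. Of the 5 ratios examined, 4 showed no overlap between groups. The share of all gene pairs without overlap was not computed, while 42.3% of single tested genes showed none. For each of the 4 ratios the exact two-sided permutation p was 0.2 (0.25 adjusted over the 5), the smallest that 3 against 2 libraries can give. The ratio of Adrb1 to Chrm2, the beta-1 receptor over the M2 receptor, was 0.105, 0.0955 and 0.157 in het 5, 6 and 7, against 0.234 and 0.173 in WT 7 and 8. The log2 difference was -0.79, while Adrb1 alone overlapped between groups. As the difference of the 2 edgeR folds with length and GC trends removed it was -0.31. Gnao1 over Gnai2 was 0.538, 0.523 and 0.513 in het, against 0.445 and 0.396 in WT, a log2 difference of 0.32 (0.19 with both trends removed). Gnas over Gnai2, the stimulatory over the inhibitory subunit, was 5.28, 5.21 and 5.26 in het, against 5.44 and 5.65 in WT. That difference of -0.08 on the log2 scale was small beside those of the other 3, and turned to 0.0064 with both trends removed. Adra1a over Adra1b differed by -0.54 (-0.67 with both trends removed). Adcy5 over Adcy6 overlapped between groups (log2 difference -0.03, exact two-sided permutation p = 0.8).

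**Figure D3:**
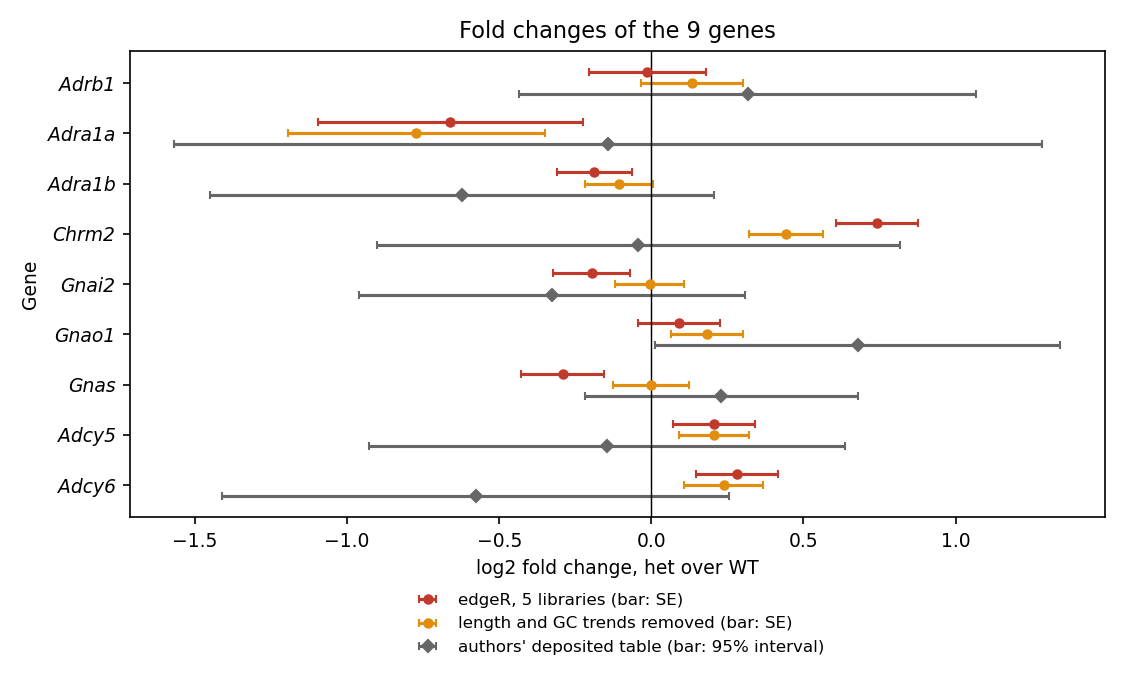
Log2 fold change of het over WT for each gene from edgeR over the 5 libraries (red, SE bars), from edgeR with length and GC trends removed (orange, SE bars), and from the authors' deposited table (grey diamonds, 95% interval). Chrm2 stands at 0.74, 0.44 and -0.04 in the 3 sources, and Gnao1 has the only authors' interval that leaves out 0.

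The authors' deposited table gives their own het against WT comparison for 14927 genes, the 9 members included. The sources used here do not say which libraries entered it, and its animals may include these 5. At an adjusted p under 0.05 that table, the authors' deposited table, called 0% of genes, and 5.6% lay under 0.05 before adjustment. The authors' deposited table lists a t of 0 for Chrm2, Adra1a, Gnas and Adcy5 although their folds are not 0. Its p-values may therefore test against a minimum fold, which the sources used here do not state, and are not read as tests against no change. Among the 9 genes, Gnao1 came first by p in the authors' deposited table, with a log2 fold change of 0.68 (95% interval 0.012 to 1.34, limma p = 0.044, adjusted 0.833). Chrm2 stood at -0.04 in the authors' deposited table, with a 95% interval of -0.90 to 0.82. Adrb1 stood at 0.32 (95% interval -0.43 to 1.07) in the authors' deposited table, and Gnas at 0.23 (-0.22 to 0.68). The folds found over the 5 libraries lay outside the interval in the authors' deposited table for Gnas (-0.29) and Adcy6 (0.28), and inside it for the other genes. Adcy6 had -0.58 (95% interval -1.41 to 0.26) in the authors' deposited table. Adra1b (-0.62), Gnai2 (-0.33), Adra1a (-0.14) and Adcy5 (-0.15) completed the authors' deposited table for these genes, each with an interval that included 0.

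Which transcripts carry these levels was read from the isoform percent, the share of a gene's transcripts that the authors' counting gave to each. Adrb1, Chrm2 and Adcy5 were each carried by 1 transcript, at 97.5% or more in each library. Adcy6 was not. Its most abundant entry, Adcy6-202, is annotated as a retained-intron transcript and holds only exons from the 3′ side of the gene. It made up 53.0%, 57.2% and 54.3% of Adcy6 in het 5, 6 and 7, against 60.4% and 74.4% in WT 7 and 8. The groups did not overlap, and WT 8 stood farthest from the rest. For this and the transcript shares below, the percentage of all transcripts without overlap was not computed. The 4 protein-coding transcripts of Adcy6, a sum chosen after seeing the data, summed to 46.6, 47.5 and 57.1 TPM in het, against 33.7 and 22.3 TPM in WT. Their mean was 50.4 ± 5.8 TPM in het (SD, n = 3) and 28.0 ± 8.1 TPM in WT (SD, n = 2), a log2 ratio of 0.85 (exact two-sided permutation p = 0.2). The ratio was 0.58 without WT 8 and 1.18 without WT 7. Adcy6-202 itself was at 62.6 ± 7.9 TPM in het and 58.9 ± 8.9 TPM in WT (exact two-sided permutation p = 0.6). Adcy6-202 is 3963 bases long and the coding Adcy6-201 6038 bases. The part of the length trend in this split was not tested.

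**Figure D4:**
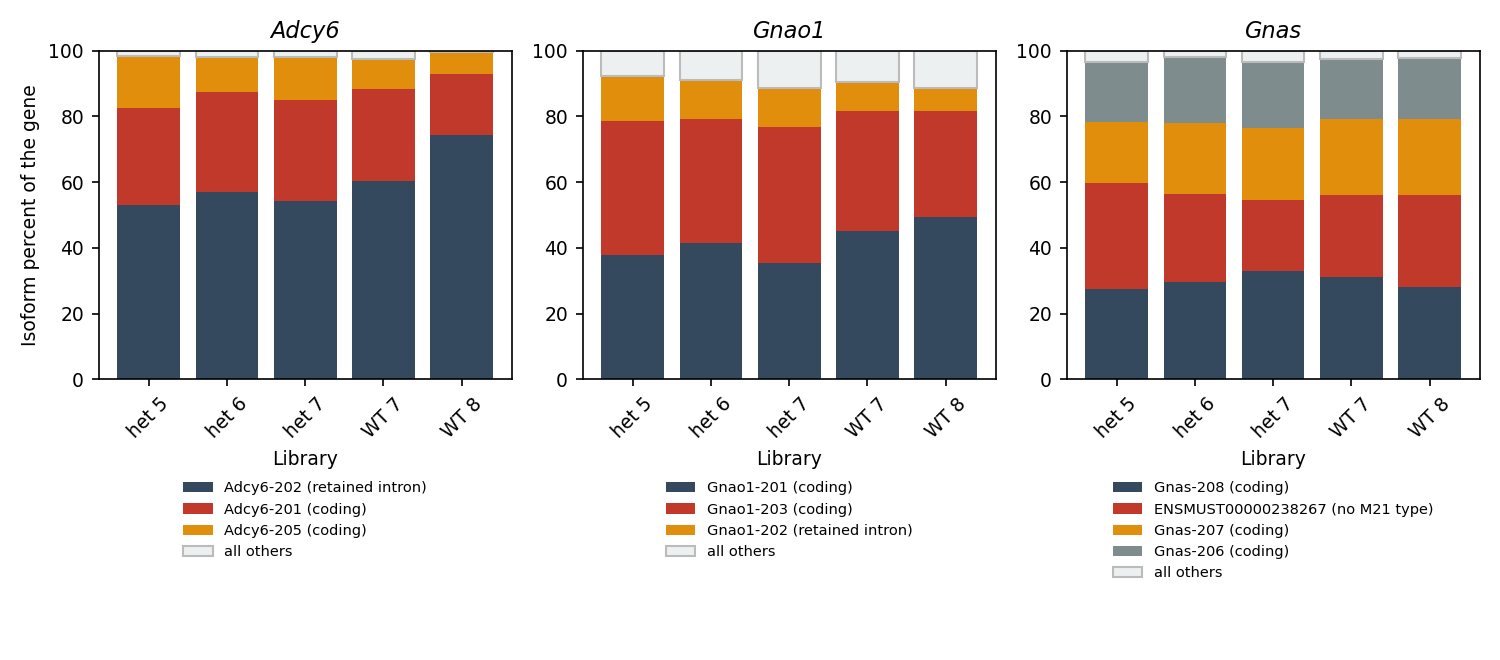
Isoform percent of the listed transcripts of Adcy6, Gnao1 and Gnas in each library, stacked to 100% (names and types from GENCODE M21). The dark Adcy6-202 segment is 53.0% to 57.2% in het and 60.4% to 74.4% in WT, while the Gnas segments show no such step between groups.

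Gnao1-201 and Gnao1-203 have the same coding sequence and differ at the 3′ end. Gnao1-201, of 2948 bases, made up 38.0%, 41.4% and 35.5% in het, against 45.2% and 49.5% in WT. The longer Gnao1-203, of 3462 bases, made up 40.7%, 37.9% and 41.4% in het, against 36.6% and 32.4% in WT. Neither pair of groups overlapped (exact two-sided permutation p = 0.2 for each), and the longer form had the larger share in het 5 and het 7. Shares within a gene are tied to each other, so these are not separate observations. The retained-intron entry Gnao1-202 stood at 12.4% ± 1.1 in het and 7.87% ± 1.4 in WT. Gnai2-201, the main transcript of that gene, held 77.4% ± 0.13 in het and 80.7% ± 1.3 in WT. Adra1b-202 and Adra1b-204 have identical exons, so their split cannot be read, and as a pair they held 69.9% ± 13.3 in het and 82.5% ± 2.6 in WT, with overlap. The shares of Adra1a transcripts rest on 22 to 41 counts and are not compared.

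Gnas makes a long and a short form of the stimulatory subunit, with and without its exon 3. The junctions of exon 2 and exon 4 are shown because they separate these forms, with 20 bases on each side and capitals for exon 3 in Gnas-208 and for the 3 further bases that Gnas-207 has at the start of exon 4. They were read from GENCODE M21 transcripts on GRCm38 (chromosome 2, plus strand, bases 174334265 to 174341672 with the introns left out).
Gnas-208 junction: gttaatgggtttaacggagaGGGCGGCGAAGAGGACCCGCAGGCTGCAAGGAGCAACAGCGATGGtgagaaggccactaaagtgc
Gnas-206 junction: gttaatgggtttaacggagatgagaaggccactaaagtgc
Gnas-207 junction: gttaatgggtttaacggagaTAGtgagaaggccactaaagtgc
The 45 bases of exon 3 are the difference between the forms. Gnas-208, which holds it, made up 27.6%, 29.6% and 33.0% of Gnas in het 5, 6 and 7, against 31.2% and 28.1% in WT 7 and 8. The short forms Gnas-206 and Gnas-207 together made up 37.0%, 41.7% and 42.1% in het, against 41.4% and 41.7% in WT. Both classes overlapped between groups, so a shift in the exon 3 choice was not detectable over these libraries. A further entry, ENSMUST00000238267, which is not in GENCODE M21, took 26.8% ± 5.3 in het and 26.5% ± 2.1 in WT, and its exons were not read here.

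The rest of the pathway was read from 8 lists with 124 genes, of which 110 were tested, with 6 called higher and 3 lower. That is 8.18% called, against 5.64% of all tested genes. With length and GC trends removed, edgeR called 0 genes of any list (17 had an unadjusted p under 0.05). Over all genes that fit had 2226 with an unadjusted p under 0.05 among 16061. Without het 5, het 6 or het 7 the 9 calls became 0, 1 and 0, while calls over all genes became 1, 11 and 0. Without WT 8 there were 9 higher and 0 lower, and the 3 lower calls (Gnb2, Pkig and Nr4a1) were lost, at log2 fold changes of -0.42, -0.49 and -0.54 (edgeR adjusted p = 0.089, 0.057 and 0.062). Adcy9 was not called in that fit either (0.87, edgeR adjusted p = 0.079), so other genes made up the 9. Without WT 7 the calls of Gnb2, Akap6, Akap9, Creb1 and Ppargc1a were lost. None of 10 other autonomic receptors was called (median log2 fold change 0.22). The highest among them was Npy1r, a receptor for neuropeptide Y, the co-transmitter of sympathetic nerves. It had 11.2, 12.8 and 19.0 TPM in het, against 9.18 and 7.63 TPM in WT, without overlap (log2 fold change 0.59, SE 0.18, edgeR adjusted p = 0.073). The adenosine receptor genes Adora1 (log2 fold change -0.23) and Adora2a (0.20) overlapped between groups.

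Of 19 other G protein subunits 0 were higher and 1 lower (median -0.02). Gnb2, a beta subunit, was at 146, 138 and 150 CPM in het, against 195 and 206 CPM in WT (log2 fold change -0.47, SE 0.12, edgeR adjusted p = 0.046). With both trends removed its fold was -0.12. Of 5 other adenylyl cyclases 1 was higher and 0 lower (median 0.50). Adcy9, a cyclase that forskolin stimulates weakly, was at 1.92, 1.90 and 2.34 TPM in het, against 1.07 and 0.59 TPM in WT. Its log2 fold change was 1.16 (SE 0.26, edgeR adjusted p = 0.031) and stayed at 1.16 with both trends removed (edgeR adjusted p = 0.066). Its level was far below those of Adcy5 and Adcy6.

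None of 16 receptor kinases, arrestins and RGS proteins was called (median 0.02). Gpsm1 (log2 fold change -0.35), Rgs2 (0.39) and Rgs3 (-0.04) had the highest levels. Rgs2, which limits Gq signalling, had 81.6, 101 and 92.8 TPM in het, against 61.7 and 40.1 TPM in WT, with an edgeR adjusted p of 0.105. Of 22 cyclic AMP effectors and anchors 2 were higher and 1 lower (median 0.16). The kinase A anchor genes Akap6 (log2 fold change 0.57, SE 0.14) and Akap9 (0.63, SE 0.13) rose, and Pkig, a protein kinase A inhibitor gene, fell (-0.54, SE 0.12). With both trends removed, Akap6 stood at 0.57, Akap9 at 0.34 and Pkig at -0.20. On the TPM scale Akap9 overlapped between groups, at 10.6 ± 4.6 in het and 10.3 ± 2.5 in WT.

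None of 12 muscarinic and alpha-1 effectors was called (median 0.19). Kcnj3 and Kcnj5 encode the subunits of the potassium channel that the M2 receptor opens. Kcnj3 had 144, 196 and 198 TPM in het, against 129 and 139 TPM in WT (log2 fold change 0.20, SE 0.14, edgeR adjusted p = 0.434). Kcnj5 had 77.0, 82.2 and 97.5 TPM in het, against 61.9 and 60.0 TPM in WT (log2 fold change 0.26, SE 0.13, edgeR adjusted p = 0.247). Both had lower edgeR folds than Chrm2, and the difference between the folds was not tested. Plcb4, a phospholipase C gene, stood at 0.29. Of 16 cyclic AMP-responsive genes 3 were higher and 1 lower (median 0.096). Creb1, the transcription factor that kinase A phosphorylates, rose by 0.63 on the log2 scale (SE 0.14, edgeR adjusted p = 0.032), and by 0.38 with both trends removed, where it was not called. Fosb (1.14), Ppargc1a (0.72) and Nr4a1 (-0.63) were the others, so this list did not move one way. None of 10 tested cardiac nerve and ganglion genes was called (median 0.096). Among them, Ache, which degrades acetylcholine, had a log2 fold change of -0.33 (SE 0.20, edgeR adjusted p = 0.356), with overlap between groups. Slc6a2, the noradrenaline transporter of sympathetic nerves, is named after its values were seen. It had 0.31, 0.36 and 0.44 TPM in het, against 0.16 and 0.09 TPM in WT, without overlap (log2 fold change 1.43, SE 0.44, edgeR adjusted p = 0.071). Slc6a2 rests on few reads, with 41, 48 and 69 expected counts in het and 24 and 10 in WT. By log2 fold change, Th (0.71) and Slc18a2 (0.24) of the same list were higher, while Dbh (-0.56) and Ddc (-0.56) were lower, each with overlap. Chat, Slc18a3 and Slc5a7, the defining genes of cholinergic neurons, averaged under 0.1 TPM over the libraries and were not tested. The summed level of 10 neuron markers was 16.6 to 32.8 TPM in het and 15.6 to 18.3 TPM in WT, with overlap.

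For 3 of the genes, those with the most similar pattern over the 5 libraries were sought among 11229 genes with a mean of at least 5 CPM, by the root mean square difference of centred log2 CPM values. Nearest to Chrm2 were Bdp1, a subunit of the RNA polymerase III factor TFIIIB (0.020), and Erbb4, a neuregulin receptor gene (0.023). Nearest to Adrb1 were Rgs12 (0.021) and 1500004A13Rik (0.060), and nearest to Adcy5 were Trappc10 (0.021) and B230354K17Rik (0.028). Rgs12, which encodes an RGS protein, had 82.7, 75.2 and 117 CPM in het, against 102 and 86.7 CPM in WT. Its 2 highest libraries were het 7 and WT 7, as for Adrb1, which follows from its choice by likeness to Adrb1. With 5 points per gene such likeness is a description and carries no test.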

How the data were processed

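Per the labels' protocols, RNA of atria was extracted in 2 fractions per sample that were combined, and stranded polyA libraries were sequenced as paired reads. Per the submitters' processing notes, reads were handled with Trim Galore, STAR and RSEM, with quality tools (FastQC, MultiQC), SAMtools, edgeR and limma also listed, on the build GRCm39. Versions are not given there. The deposited RSEM tables hold expected counts, which the authors did not normalize, TPM values scaled by the authors to length and library total, and the authors' isoform percent. Log2 fold changes with intervals, scores (t) and p-values come in the authors' deposited table of het against WT.

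Groups came from sample titles. Expected counts were rounded to whole numbers, filtered with edgeR's default expression filter and scaled by TMM. The main test was the quasi-likelihood F test of edgeR (robust), with Benjamini-Hochberg adjustment over 16412 genes (threshold 0.05). The biological coefficient of variation was 0.18. Transcript shares, summed transcript levels and ratios were compared by exact permutation tests, where 10 splits allow no p under 0.2. Intervals of depth are not given, since precision is read from replicates. P-values measure the spread between these animals only.

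Alternatives were DESeq2, limma-voom, library size alone, upper-quartile scaling, other filters, limma on log2(TPM + 1) and log2(TPM + 0.1), length and GC trends removed with mgcv offsets, and each library left out. The summed level of the coding transcripts of Adcy6 was chosen after seeing the data. So were its alternatives (a sum of counts in place of TPM, each library left out) and, for the ratios, the removal of both trends. The members and lists were chosen with earlier results of these data known. Named were all members, every called gene of each list or, where none was called, up to 3 of the highest TPM, and the 2 genes of most similar pattern for Adrb1, Chrm2 and Adcy5. Some genes that this rule names are left out of the text.

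Sequences came from GENCODE M21 (GRCm38) and RefSeq (GRCm38.p6), of another build than the files, so the coordinates printed are of GRCm38. Listed transcripts had the same length in M21 and in the files, except ENSMUST00000238267 of Gnas, which M21 does not hold. The code was tested on simulated data. Versions were edgeR 4.0.16, DESeq2 1.42.0, limma 3.58.1 and mgcv 1.9.3 under R 4.3.3.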

Additional observations from a re-analysis of the deposited data

How the results depend on the processing

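The 9 member folds kept their sign in 122 of 135 fits (15 alternatives for each of 9 genes), and 4 genes kept it in all. Chrm2 stayed higher throughout. It was no longer called with log2(TPM + 1) (0.87), with the length trend (0.53) or both trends (0.44) removed, or without any 1 het library (0.72 to 0.76). It was still called without WT 7 (0.64) or WT 8 (0.86). Adrb1 turned sign with library size alone (0.031), every gene with a count (0.039), log2(TPM + 1) (0.089), log2(TPM + 0.1) (0.096) and both trends removed (0.13), and ran from -0.24 to 0.11 with each library left out. Adra1b turned on both TPM scales (0.064 and 0.068), Gnas with both trends removed (0.00033), Adcy5 with the length trend removed (-0.0067), and Gnao1 without WT 8 (-0.024, range to 0.23). The Adcy5 to Adcy6 ratio ran from -0.18 to 0.12 with each library left out, and the Gnas to Gnai2 ratio turned to 0.0064 with both trends removed. The log2 ratio of Adcy6 coding transcripts was 0.69 from counts in place of TPM. For each of these the cause was not tested.

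Over all genes, 926 were called, 490 higher and 436 lower. The split was 795 to 391 with library size alone and 327 to 568 with upper-quartile scaling. The count moved to 1647 with DESeq2, 2211 with every gene with a count, 8 and 22 with the TPM pseudocounts of 1 and 0.1, 21 with the length trend and 24 with both trends removed. It was 0 to 878 with each library left out. Without het 7, which gave 0 in edgeR, 3549 genes had an unadjusted p under 0.05. The 9 calls among list genes became 16 with DESeq2, 14 with library size alone, 22 with every gene with a count, and 0 with both TPM scales, the length trend or both trends removed. They ran from 0 (het 5 or het 7 left out) to 9 (WT 8 left out, all higher, where the main split was 6 higher and 3 lower).

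No paired analysis was possible because het and WT share the replicate number 7 alone. Depth limits Adra1a, with 22 to 41 counts.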

Other observations

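Gnas transcripts that begin at the Nesp start, the imprinted upstream start of the locus that yields a chromogranin-like protein, were read after their values were seen. They made up 0.19%, 0.13% and 0.19% of Gnas in het 5, 6 and 7, against 0% and 0.02% in WT 7 and 8. Their summed level was 1.35, 0.909 and 1.51 TPM in het, against 0 and 0.149 TPM in WT, without overlap (exact two-sided permutation p = 0.2). Transcripts of the exon 1A start stood at 0.68% ± 0.26 in het (SD, n = 3) and 0.60% ± 0.085 in WT (SD, n = 2), with overlap, and those of the XL start were listed at 0 in all 5 libraries. These shares are a small part of Gnas and rest on RSEM's split of reads among transcripts that share most of their exons.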
